A study of Mus musculus with 9 samples.

Results

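The Slc25 family is the set of mitochondrial carriers, and it was described here in mouse intestinal tumour organoids before and after the tumour suppressor Apc was restored. Its members were taken as every row of the count table whose Ensembl identifier carries a protein-coding symbol beginning with Slc25a in GENCODE M21. The rule found 47 genes of 21253 rows, and 40 of the 47 had enough reads to be tested among 12535 tested genes. It used names alone and no measured value, although it was set with earlier results of these data known.

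The organoids, labelled AKP in the deposit, carry a hairpin against Apc (shAPC) that is made while doxycycline is present. AKP is not spelled out in the labels. There were 3 groups with 3 samples in each. The control group was kept in doxycycline, with the hairpin made and Apc lowered. The second group had been without doxycycline for 2 days and the third for 7 days, so that Apc expression could return. All 9 samples came from organoids of the same name, and the labels call the replicates technical. No separate line, clone or animal is named for them. The p-values therefore reflect how far samples of a group differ, and that spread may be technical. Doxycycline withdrawal and Apc restoration coincide and cannot be told apart, and the 2-day and 7-day groups share the same controls.

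Carriers of this family sit almost all in the inner mitochondrial membrane. Each exchanges or imports a small molecule, such as ADP and ATP, phosphate, citrate, amino acids, acylcarnitine or a cofactor, and so links metabolism in the cytosol with that in the matrix. They are made in the cytosol and inserted by dedicated import complexes. In the intestine, absorptive enterocytes burn fatty acids and amino acids in their mitochondria, whereas dividing crypt cells draw on mitochondrial folate and aspartate for nucleotide synthesis.

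The libraries held between 24143589 and 32277040 counts, with 14925 to 15574 genes detected. Levels are given as CPM, the counts of a gene relative to the size of its library, after TMM scaling, which sets the libraries to a common level using the bulk of the genes. Apc was measured at 6.8, 6.83 and 8.84 CPM in control organoids, at 31.8, 38.1 and 24.8 CPM after 2 days and at 67.9, 69.9 and 92.9 CPM after 7 days. The samples therefore followed their labels. The summed level of 10 absorptive enterocyte markers ranged from 420 to 515 CPM in control organoids, from 448 to 520 CPM after 2 days and from 16601 to 18024 CPM after 7 days. Most of it in the controls and at 2 days was Vil1, a structural protein of microvilli. The other 9 summed to between 13.6 and 18 CPM, between 51 and 53.8 CPM and between 15125 and 16087 CPM in the same order. At 2 days 4 of the 10 were called higher, against 13.1% of all tested genes. The sum of 5 goblet cell markers ranged from 34 to 36.6, from 180 to 181 and from 3265 to 3928 CPM in the same order. That of 5 crypt-base stem cell markers ranged from 186 to 210, from 35 to 35.9 and from 23.1 to 26.3 CPM. Most of it at 2 and 7 days was Smoc2, which averaged 27.2 and 22.6 CPM. Axin2, Lgr5 and Ascl2 averaged 0.658, 0.886 and 0.0144 CPM at 7 days, and Olfm4 was near 0 in every group. Intestinal epithelial markers were thus present in every group, and their levels moved with time. In bulk samples such as these, fewer cells of a type and less RNA per cell cannot be told apart, and the part that the marker changes had in the carrier results was not tested.

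The 4 members shown next are the acylcarnitine carrier Slc25a20 and the methylated amino acid carrier Slc25a45, which rose the most among members with at least 5 CPM, and the choline carrier Slc25a48 and the uncoupling-protein-like carrier Slc25a30, which fell the most. Their promoter windows are printed as the 250 bases before the RefSeq transcription start on GRCm38.p6. They lie at chr19:5877572-5877821 for Slc25a45, chr9:108661886-108662135 for Slc25a20 and chr13:56438105-56438354 for Slc25a48, all on the plus strand. That of Slc25a30 lies at chr14:75787038-75787287 on the minus strand.
Slc25a45: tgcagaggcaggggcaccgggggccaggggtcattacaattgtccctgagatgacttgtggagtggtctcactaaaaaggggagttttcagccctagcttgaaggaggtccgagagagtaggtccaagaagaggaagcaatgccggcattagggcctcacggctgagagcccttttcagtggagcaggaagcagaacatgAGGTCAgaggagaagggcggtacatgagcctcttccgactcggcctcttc
Slc25a20: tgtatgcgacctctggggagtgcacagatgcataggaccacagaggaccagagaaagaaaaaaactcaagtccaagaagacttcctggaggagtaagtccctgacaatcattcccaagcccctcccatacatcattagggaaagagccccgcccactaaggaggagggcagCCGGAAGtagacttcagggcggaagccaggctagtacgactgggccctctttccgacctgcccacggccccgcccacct
Slc25a48: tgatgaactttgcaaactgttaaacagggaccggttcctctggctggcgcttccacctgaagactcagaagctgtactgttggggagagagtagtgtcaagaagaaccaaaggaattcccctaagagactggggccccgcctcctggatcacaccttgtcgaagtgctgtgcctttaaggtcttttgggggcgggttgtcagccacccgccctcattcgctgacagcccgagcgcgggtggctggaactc
Slc25a30: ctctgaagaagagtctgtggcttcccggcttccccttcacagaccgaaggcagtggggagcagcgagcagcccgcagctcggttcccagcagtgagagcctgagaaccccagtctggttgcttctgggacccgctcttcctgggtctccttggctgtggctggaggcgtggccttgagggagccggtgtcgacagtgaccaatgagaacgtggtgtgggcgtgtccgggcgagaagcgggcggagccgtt
The capitals mark the matches to 5 motifs that were searched on both strands. AGGTCA, the core letters bound by many nuclear receptors, begins 50 bases before the start of Slc25a45. CCGGAAG, the letters bound by ETS factors, begins 79 bases before the start of Slc25a20. The windows of Slc25a48 and Slc25a30 held none of the motifs.

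Among the 36 members with a RefSeq window, AGGTCA was found in 4, against 14% of all 32851 windows. The ETS letters were found in 6 members, against 6.91% of all windows. CACGTG, an E-box bound by Myc and related factors, was found in 7 members, against 6.02% of all windows. They were Slc25a1, Slc25a13, Slc25a14, Slc25a15, Slc25a31, Slc25a33 and Slc25a36. CTTTGAT, the letters bound by the TCF/LEF factors of the Wnt pathway, was found in 3 members (Slc25a22, Slc25a28 and Slc25a43), against 3.21% of all windows, and TATAAA in 2 members, against 12.4%. The median GC content was 57.4% over the 46 windows of members and 52.4% over all windows. A member was counted if any of its windows held the letters, and the 36 members had 46 windows. The shares of all windows count single windows, so the member counts and these shares are not on the same scale. These are descriptions of letters, and no match speaks of binding.

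After 2 days the carriers had moved little. Choline carrier Slc25a48 fell 2.08-fold, the largest change among the members that passed the test. Of the 40 tested members, 9 were called, or 22.5%, against 23.7% of all tested genes (edgeR's quasi-likelihood test, Benjamini-Hochberg adjusted over all genes, adjusted p under 0.05). The 5 called higher were 12.5% of the members, against 13.1% of all genes, and the 4 called lower were 10% of the members, against 10.6% of all genes. The members' median log2 fold change was -0.06 and that of all genes 0.00, and the median absolute change was 0.15 and 0.17. The called share of the carriers was thus close to the background. Only the falls of Slc25a48 and of the pyrimidine nucleotide carrier Slc25a33 were called in each of the 16 alternative settings. The calls of Slc25a35, Slc25a11, Slc25a37, Slc25a24, Slc25a32, Slc25a20 and Slc25a29 were kept in 15, 14, 11, 9, 9, 7 and 6 of them.

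After 7 days most carriers had changed, as had most genes. The acylcarnitine carrier Slc25a20 rose 7.85-fold and Slc25a45 rose 13.1-fold, while Slc25a48 fell 6.36-fold and Slc25a30 fell 3.51-fold. Of the 40 members, 32 were called, or 80%, against 82.3% of all tested genes. The 20 called higher were 50% of the members, against 40.5% of all genes, and the 12 called lower were 30%, against 41.8%. The median log2 fold change was 0.3 over the members and -0.03 over all genes, and the median absolute change was 0.7 and 0.81. In all 32 called members the 7-day and control samples did not overlap, which was 80% of the members, against 79.6% of all tested genes that were called with no overlap. Changes beyond 2-fold were seen in 13 members, or 32.5%, against 41.8% of all tested genes. The split between rises and falls depends on the scaling: with library size alone, which moves the median of all genes by -0.4, 14 members were called higher and 19 lower. That was 35% and 47.5% of the members, against 29.3% and 54.9% of all tested genes with the same scaling. The 7-day samples had TMM factors of 0.785 to 0.8735, against 1.073 to 1.125 in the controls.

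Set against the 2-day samples, the 7-day samples differed in 33 of 40 members, or 82.5%, against 79.1% of all tested genes. The 20 members higher at 7 days were 50%, against 39.2% of all genes, and the 13 lower were 32.5%, against 39.9%. With library size alone, 15 members were called higher and 19 lower, or 37.5% and 47.5%, against 26.2% and 56.2% of all tested genes. The median log2 difference was 0.15 over the members and -0.03 over all genes. In all 33 called members the 7-day and 2-day samples did not overlap, which was 82.5% of the members, against 76.8% of all tested genes.

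**Figure D1:**
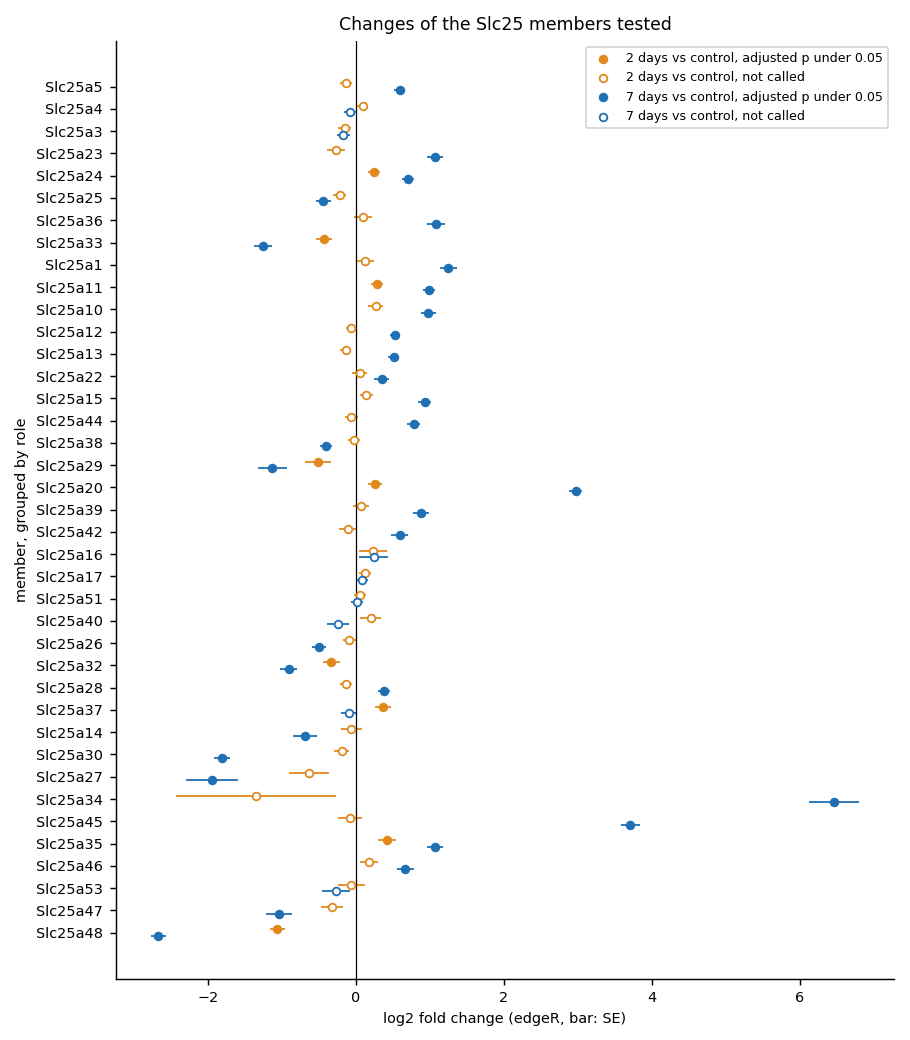
Log2 fold changes of the tested members named in the text, grouped by role, with 2 days against control in orange and 7 days against control in blue (bars are standard errors, filled points have an adjusted p under 0.05, open points were not called). Most 2-day points lie near 0, while most of the 7-day points are filled; the fitted value of Slc25a34 rests on 3 control counts and is no measure of its size.

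**Figure D2:**
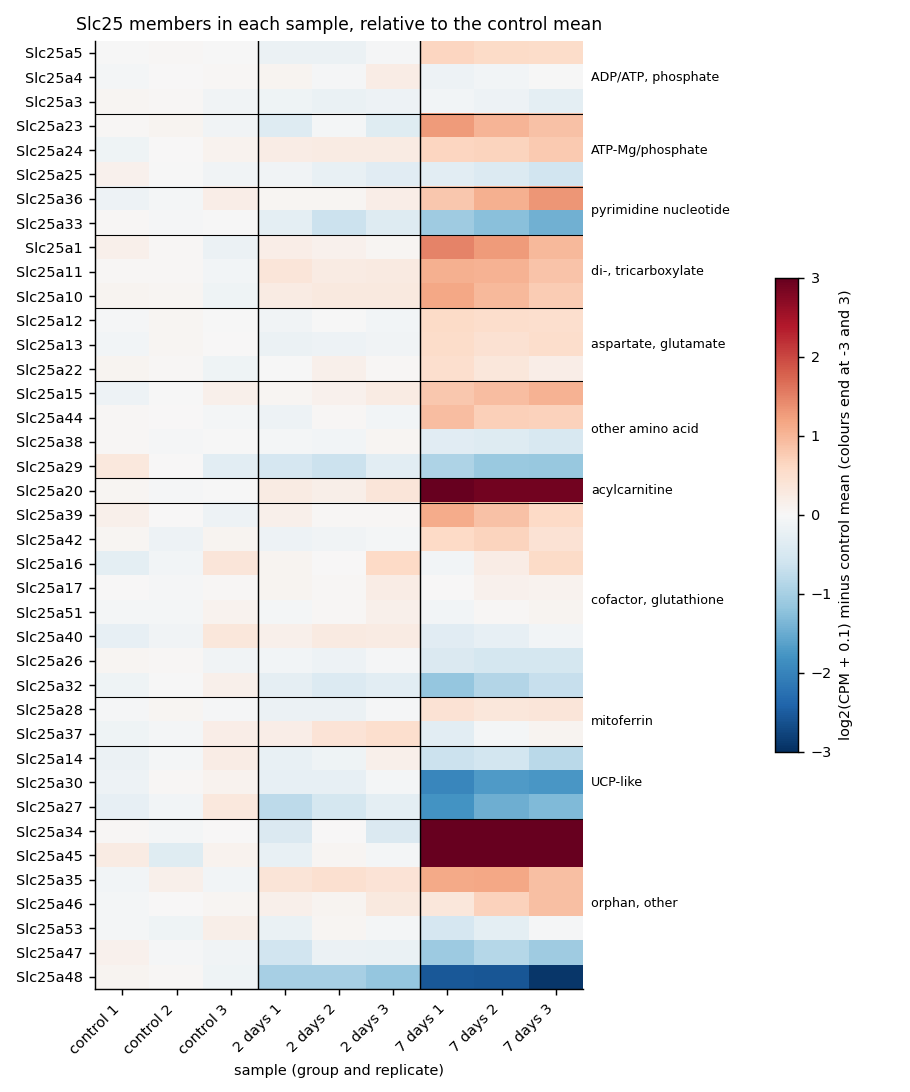
Each row is a tested member named in the text and each column a sample, in the order control, 2 days and 7 days; colour is log2(CPM + 0.1) minus the mean of the 3 controls, and the colours end at -3 and 3. The 3 samples of 7 days stand apart from the others in most rows, with Slc25a20, Slc25a45 and Slc25a34 high and Slc25a48, Slc25a30 and Slc25a27 low. The row of Slc25a34 rests on 3 control counts.

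The ADP/ATP carriers bring ADP into the matrix in exchange for ATP, and Slc25a3 brings in the phosphate that ATP synthase needs. Slc25a5 (ENSMUSG00000016319, chrX:36795651-36798807 on GRCm38) was the highest of all members per length. It was measured at 792, 822 and 800 CPM in control organoids, at 708, 708 and 783 CPM after 2 days and at 1257, 1195 and 1179 CPM after 7 days. The 7-day samples all lay above the rest, and the rise against the controls was 1.5-fold (log2 fold change 0.59, SE 0.08, adjusted p = 6e-06 by edgeR). The related ADP/ATP carrier Slc25a4 averaged 312 ± 10.3 CPM in control organoids, 332 ± 30.4 CPM after 2 days and 295 ± 12.7 CPM after 7 days (SD, n = 3 each). Phosphate carrier Slc25a3 averaged 804 ± 47.6, 723 ± 16.5 and 715 ± 56.5 CPM in the same groups. Neither was called at 7 days, with log2 fold changes of -0.08 for Slc25a4 and -0.17 for Slc25a3. With library size alone both were called lower, at -0.48 for Slc25a4 and -0.57 for Slc25a3. Slc25a3 was also called lower in some of the other alternative settings. The rise of Slc25a5 was called in all 16, with log2 fold changes from 0.19 to 0.63. The germ cell ADP/ATP carrier Slc25a31 had 1 count in all 9 samples together. Slc25a5 has near-identical processed copies elsewhere in the genome, so its reads are uncertain to the extent that the counting could split them.

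The ATP-Mg/phosphate carriers adjust the adenine nucleotide content of the matrix in response to calcium. Slc25a24 stood at 171, 188 and 202 CPM in control organoids, 218, 222 and 223 CPM after 2 days and 290, 297 and 324 CPM after 7 days. The 3 groups did not overlap. Its rise was 1.18-fold after 2 days (log2 fold change 0.24, adjusted p = 0.04 by edgeR) and 1.63-fold after 7 days (0.70, adjusted p = 9.5e-07). Slc25a23 stood at 24.8, 25.6 and 22.3 CPM in control organoids, 18.6, 23.1 and 18.8 CPM after 2 days and 59, 49.1 and 44.9 CPM after 7 days. It rose 2.1-fold at 7 days (SE 0.11 on the log2 scale, adjusted p = 3.5e-07). Slc25a25 went the other way and stood at 45, 41 and 38.1 CPM in control organoids, 38.3, 35.2 and 32.7 CPM after 2 days and 33.2, 30.8 and 27.6 CPM after 7 days. It fell 1.36-fold at 7 days (adjusted p = 0.0006). Slc25a41, the last of this group, had 2 counts in all 9 samples together.

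Slc25a33 and Slc25a36 import pyrimidine nucleotides, which the mitochondrial genome needs for its replication and transcription, and they moved in opposite directions. Slc25a33 stood at 20.7, 19.5 and 20 CPM in control organoids, at 16.4, 12.7 and 15.3 CPM after 2 days and at 9.48, 8.37 and 7.33 CPM after 7 days. The groups did not overlap, and Slc25a33 fell 1.35-fold after 2 days (adjusted p = 0.0094 by edgeR) and 2.39-fold after 7 days (adjusted p = 7.4e-08). Slc25a36 stood at 23.4, 25.3 and 30.3 CPM in control organoids, 27.2, 27.2 and 30.3 CPM after 2 days and 45.9, 55 and 65.5 CPM after 7 days. Its control and 2-day samples overlapped, and it rose 2.11-fold at 7 days (log2 fold change 1.08, SE 0.12, adjusted p = 9.2e-07).

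All 3 tested carriers of di- and tricarboxylates rose after 7 days, when 40.5% of all tested genes were called higher. Slc25a1 exports citrate, the source of acetyl groups for fatty acid synthesis in the cytosol (ENSMUSG00000003528, chr16:17925223-17928219). It stood at 192, 175 and 151 CPM in control organoids, 196, 187 and 180 CPM after 2 days and 480, 414 and 340 CPM after 7 days. The lowest 7-day sample was well above every earlier sample, and the rise was 2.38-fold (SE 0.12 on the log2 scale, adjusted p = 8.3e-08 by edgeR). Slc25a10, the dicarboxylate carrier for malate and succinate, stood at 115, 112 and 98.6 CPM in control organoids, 128, 133 and 132 CPM after 2 days and 244, 214 and 184 CPM after 7 days. It rose 1.97-fold at 7 days (adjusted p = 1.9e-07). At 2 days its log2 fold change was 0.27, with an adjusted p of 0.059 by edgeR, although the 2-day and control samples did not overlap. Slc25a11 exchanges oxoglutarate for malate and belongs to the malate-aspartate shuttle. It stood at 54, 54 and 49.3 CPM in control organoids, 67.6, 61.7 and 63.3 CPM after 2 days and 109, 108 and 95 CPM after 7 days. Its rise was 1.22-fold after 2 days (adjusted p = 0.015 by edgeR) and 1.98-fold after 7 days (adjusted p = 1.6e-08). The oxodicarboxylate carrier Slc25a21 had 6 counts in all 9 samples together.

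Exons of Slc25a11 overlap those of Rnf167 on the opposite strand over 189 of 2120 bases. The libraries do not mark strand, so reads from such stretches cannot be told apart. The same holds for 379 of 7862 bases of Slc25a25 with Naif1 and 144 of 4807 bases of Slc25a26 with Lrig1. It also holds for 1151 of 3677 bases of Slc25a35 with Rangrf. These overlapping genes are in the counts. Exons of other members overlap opposite-strand genes that are not, and the same limit applies. Among them are Slc25a33 (281 of 1887 bases with Gm13068) and Slc25a46 (383 of 5425 bases with B930094E09Rik). Slc25a10 overlaps Gm11788 over 228 of 3455 bases and Slc25a23 overlaps Gm17168 over 168 of 5294 bases. Slc25a37 overlaps Gm31748 over 381 and Gm27223 over 92 of 6021 bases.

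**Figure D3:**
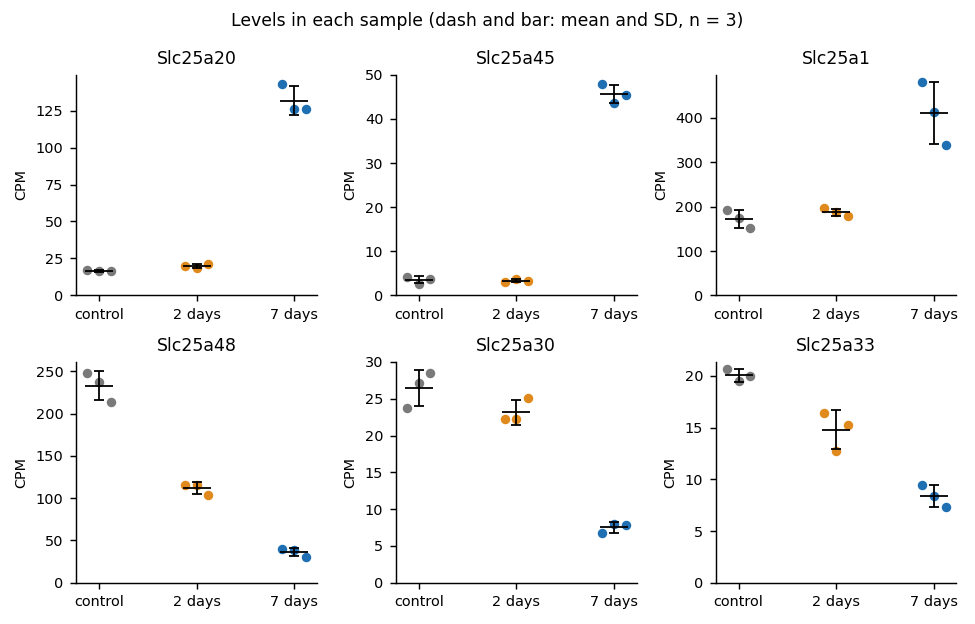
TMM-scaled CPM (vertical axes from 0) of 6 members in each of the 9 samples, with controls in grey, 2 days in orange and 7 days in blue (the dash and bar are the mean and SD, n = 3). Slc25a20, Slc25a45 and Slc25a1 are high only in the 7-day samples plotted, Slc25a48 and Slc25a33 are lower at 2 days and lower again at 7 days, and Slc25a30 is low at 7 days.

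The aspartate and glutamate carriers rose modestly, and the gain depended on the scaling. Slc25a12 and Slc25a13, known as aralar and citrin, export aspartate in exchange for glutamate in the malate-aspartate shuttle. Slc25a12 averaged 50.6 ± 2.08 CPM in control organoids, 48.3 ± 1.95 CPM after 2 days and 73.2 ± 1.9 CPM after 7 days (SD, n = 3 each). Slc25a13 averaged 80.1 ± 4.28, 72.5 ± 1.91 and 114 ± 4.39 CPM in the same groups. Their rises at 7 days were 1.45-fold and 1.42-fold (log2 fold changes 0.53 and 0.51, adjusted p = 5.7e-06 and 9.1e-06 by edgeR), and neither was called with library size alone, at log2 fold changes of 0.13 and 0.11. The glutamate carrier Slc25a22 averaged 19.3 ± 1.42, 20.1 ± 1.18 and 24.7 ± 2.63 CPM, and its rise of 0.35 on the log2 scale turned to -0.06 with library size alone. The other glutamate carrier, Slc25a18, had 12 counts in all 9 samples together.

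The remaining amino acid carriers were split, with 2 higher and 2 lower at 7 days, against 40.5% and 41.8% of all tested genes. Slc25a15, the ornithine carrier of the urea cycle, averaged 39.7 ± 4.31 CPM in control organoids, 43.7 ± 2.81 CPM after 2 days and 75.6 ± 6.21 CPM after 7 days (SD, n = 3 each). Slc25a44, which imports branched-chain amino acids, averaged 42.2 ± 1.27, 40.3 ± 2.84 and 72.3 ± 6.8 CPM. These were rises of 1.9-fold and 1.71-fold at 7 days (adjusted p = 2.2e-07 and 5.6e-07 by edgeR). The basic amino acid carrier Slc25a29 was low throughout and averaged 2.74 ± 0.615, 1.9 ± 0.228 and 1.25 ± 0.115 CPM. It fell 2.18-fold at 7 days (adjusted p = 8.7e-05 by edgeR), while its 2-day samples overlapped the controls. Slc25a38, which brings glycine to the first step of haem synthesis, averaged 29.7 ± 0.735, 29.2 ± 1.4 and 22.5 ± 1.08 CPM and fell 1.32-fold at 7 days (adjusted p = 0.00027 by edgeR). The ornithine carrier Slc25a2 had 11 counts in all 9 samples together.

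Slc25a20 carries acylcarnitines into the matrix, the step before fatty acid oxidation, and returns free carnitine (ENSMUSG00000032602, chr9:108662088-108684641). It stood at 17.4, 16.2 and 16.6 CPM in control organoids, at 19.7, 18.8 and 21.5 CPM after 2 days and at 143, 126 and 126 CPM after 7 days. The 7-day samples were far above all others. The log2 fold change was 2.97 (SE 0.09, adjusted p = 1.4e-13 by edgeR), and leaving out a sample or changing the tool did not end the call. The 2-day difference was small, at 1.19-fold (adjusted p = 0.0459 by edgeR), and was called in 7 of 16 alternatives.

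The enzymes on either side of this carrier rose with it. All 13 tested genes of the carnitine shuttle and beta-oxidation were called higher at 7 days, against 40.5% of all tested genes, and 2 were called higher at 2 days, against 13.1%. Their median log2 fold change at 7 days was 1.53, against -0.03 over all genes. This list and the other gene lists were chosen with earlier results of these data known. Shares called in them are therefore descriptions and no test of a pathway. Cpt1a, which forms acylcarnitine on the outer membrane and controls entry into the pathway, averaged 27.4 ± 1.43 CPM in control organoids, 45.5 ± 4.65 CPM after 2 days and 190 ± 8.04 CPM after 7 days (SD, n = 3 each). Its log2 fold change was 2.79 at 7 days (adjusted p = 3.4e-13 by edgeR). Hadh, a dehydrogenase of the oxidation cycle, and Crat, carnitine acetyltransferase, had log2 fold changes of 2.35 and 2.23.

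The cofactor and glutathione carriers were mixed, with 2 higher, 3 lower and 4 not called at 7 days. Of all tested genes, 40.5% were called higher and 41.8% lower. Slc25a39, which brings glutathione into the matrix, stood at 136, 125 and 110 CPM in control organoids, 136, 126 and 127 CPM after 2 days and 268, 226 and 188 CPM after 7 days. It rose 1.84-fold at 7 days (log2 fold change 0.88, SE 0.11, adjusted p = 3.2e-06 by edgeR). Its relative Slc25a40 averaged 5.57 ± 1.25, 6.41 ± 0.256 and 4.7 ± 0.452 CPM (SD, n = 3 each) and was not called. Slc25a42, a coenzyme A carrier, averaged 4.74 ± 0.405, 4.38 ± 0.159 and 7.1 ± 0.596 CPM, a rise of 1.5-fold at 7 days that was not called with library size alone. Slc25a16, also linked to coenzyme A, averaged 9.98 ± 2.47, 11.7 ± 2.66 and 11.8 ± 2.72 CPM and overlapped in all groups.

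The carriers for folate and S-adenosylmethionine fell. Slc25a32, the folate carrier, stood at 23.2, 24.9 and 27.9 CPM in control organoids, 20.9, 19.1 and 20.3 CPM after 2 days and 11.3, 13.6 and 15.5 CPM after 7 days. It fell 1.26-fold after 2 days (adjusted p = 0.037 by edgeR) and 1.87-fold after 7 days (adjusted p = 2.2e-06). The 3 groups of Slc25a32 did not overlap. Slc25a26, which imports S-adenosylmethionine for methylation in the matrix, stood at 12, 11.9 and 10.7 CPM in control organoids, 10.8, 10.4 and 11.3 CPM after 2 days and 8.57, 7.92 and 7.95 CPM after 7 days. It fell 1.41-fold at 7 days (adjusted p = 0.00024 by edgeR). The peroxisomal cofactor carrier Slc25a17 averaged 50.2 ± 1.37, 54.3 ± 3.47 and 52.9 ± 2.3 CPM, and the NAD carrier Slc25a51 43 ± 2.79, 44.5 ± 3.07 and 43.3 ± 2.59 CPM (SD, n = 3 each). Neither was called at 7 days, at log2 fold changes of 0.08 and 0.01, which became -0.32 and -0.39 with library size alone.

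Enzymes of mitochondrial folate and S-adenosylmethionine metabolism mostly fell too. Of 8 tested, 4 were called lower at 2 days and 7 at 7 days, with a median log2 fold change of -0.91 at 7 days. Of all tested genes, 10.6% and 41.8% were called lower at these times. Mthfd2, which oxidizes one-carbon units on folate in the matrix, averaged 147 ± 4.44 CPM in control organoids, 110 ± 5.25 CPM after 2 days and 37.6 ± 4.34 CPM after 7 days (SD, n = 3 each). Shmt2, which loads folate with carbon from serine, averaged 459 ± 60.5, 320 ± 23.4 and 119 ± 19.2 CPM. Their log2 fold changes at 7 days were -1.97 and -1.94 (adjusted p = 1.6e-11 and 8e-10 by edgeR). Aldh1l2, which oxidizes formyl folate to release carbon dioxide, was the exception and was called higher at 7 days, with a log2 fold change of 0.95.

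The mitoferrins import iron for haem and iron-sulphur cluster assembly. Slc25a37, mitoferrin-1, best known from erythroid cells, stood at 68.4, 72.5 and 86.2 CPM in control organoids, 86, 100 and 107 CPM after 2 days and 60.9, 72.4 and 79.4 CPM after 7 days. The 2-day and control samples overlapped, with 86 CPM the lowest at 2 days and 86.2 CPM the highest control. The 2-day difference was called (1.29-fold, adjusted p = 0.026 by edgeR) and the 7-day difference was not (log2 fold change -0.09, adjusted p = 0.46). Slc25a28, mitoferrin-2, averaged 33.5 ± 1.32, 30.7 ± 1.77 and 43.7 ± 1.27 CPM (SD, n = 3 each). Its rise at 7 days was 1.3-fold, or 0.38 on the log2 scale, and became -0.02 with library size alone. The sum of 8 erythroid markers ranged from 11.3 to 14.1 CPM in control organoids, from 0.761 to 1.35 CPM after 2 days and from 1.5 to 2.38 CPM after 7 days, and its part in the mitoferrin results was not tested. Most of that sum was the globin gene Hbb-bs, which averaged 12.1, 0.687 and 1.06 CPM in the same order. Of 14 tested haem and iron-sulphur enzymes, 4 were called higher and 3 lower at 7 days, in all 50%, against 82.3% of all tested genes. Alas1, which performs the first step of haem synthesis, had a log2 fold change of 1.31.

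All 3 uncoupling-protein-like carriers fell after 7 days, when 41.8% of all tested genes were called lower. Slc25a30 (ENSMUSG00000022003, chr14:75760117-75787037 on the minus strand) stood at 23.7, 27.1 and 28.5 CPM in control organoids, 22.2, 22.2 and 25.1 CPM after 2 days and 6.71, 8.04 and 7.81 CPM after 7 days. It fell 3.51-fold at 7 days (log2 fold change -1.81, SE 0.11, adjusted p = 4.1e-10 by edgeR), and its control and 2-day samples overlapped. Slc25a14 stood at 4.4, 4.79 and 5.86 CPM in control organoids, 4.26, 4.57 and 5.59 CPM after 2 days and 3.16, 3.38 and 2.79 CPM after 7 days. It fell 1.62-fold at 7 days (adjusted p = 0.00081 by edgeR). Slc25a27, known mainly from neurons, was scarce, with 63 counts in the controls, 43 after 2 days and 14 after 7 days, and fell 3.84-fold at 7 days (adjusted p = 9.7e-05 by edgeR).

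The uncoupling protein Ucp2, which has the carrier fold but lies outside the name rule, rose. It averaged 388 ± 55.3 CPM in control organoids, 383 ± 30.8 CPM after 2 days and 3446 ± 661 CPM after 7 days (SD, n = 3 each), a log2 fold change of 3.15 at 7 days (SE 0.15, adjusted p = 2.2e-11 by edgeR). Ucp1, the uncoupling protein of brown fat, had no count in any sample. Mtch1 and Mtch2, outer membrane proteins of the same fold, had log2 fold changes of 0.64 and 0.92 at 7 days. All 3 tested genes of this list were called higher, against 40.5% of all tested genes.

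The remaining members include the largest movements of the family. Slc25a48, a choline carrier (ENSMUSG00000021509, chr13:56438355-56474239), stood at 248, 237 and 214 CPM in control organoids, 116, 116 and 104 CPM after 2 days and 39.9, 39.1 and 30.9 CPM after 7 days. No sample of one group reached the range of another. Its log2 fold change was -1.06 after 2 days (SE 0.10, adjusted p = 1.1e-06 by edgeR) and -2.67 after 7 days (SE 0.10, adjusted p = 3.1e-12). Slc25a45, a carrier of methylated basic amino acids (ENSMUSG00000024818, chr19:5877808-5885878), stood at 4.17, 2.67 and 3.76 CPM in control organoids, 2.97, 3.63 and 3.35 CPM after 2 days and 47.8, 43.7 and 45.5 CPM after 7 days. The control and 2-day samples overlapped and lay far below the 7-day samples. Its log2 fold change at 7 days was 3.71 (SE 0.13, adjusted p = 1.2e-12 by edgeR).

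Slc25a34, a little-characterised carrier, was nearly absent until 7 days. Its reads numbered 3 in the controls, 1 after 2 days and 257 after 7 days, each summed over 3 samples. Corrected for the TMM-scaled library sizes, the ratio of 7 days to control was 98.9, with a 95% exact interval of 33.5 to 483 that covers counting error only. The 7-day samples stood at 3.68, 3.19 and 3.19 CPM, against at most 0.0386 CPM in any control.

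Slc25a35, its close relative in sequence, also rose. It stood at 5.25, 6.2 and 5.18 CPM in control organoids, 7.29, 7.79 and 7.37 CPM after 2 days and 12.2, 12.5 and 10.4 CPM after 7 days. The groups did not overlap, and the rise was 1.34-fold after 2 days (adjusted p = 0.015 by edgeR) and 2.1-fold after 7 days (adjusted p = 3.9e-07). Slc25a46, an outer membrane protein involved in mitochondrial shape, averaged 16.5 ± 0.824, 18.7 ± 1.28 and 26.2 ± 4.92 CPM (SD, n = 3 each), a rise of 1.59-fold at 7 days that was not called with library size alone. Slc25a47, best known from liver, averaged 3.36 ± 0.282, 2.69 ± 0.418 and 1.62 ± 0.16 CPM and fell 2.06-fold at 7 days (adjusted p = 3.5e-05 by edgeR). It is the head-to-head neighbour of Slc25a29 on chromosome 12, with 162 bases between the genes, and Slc25a29 fell as well. Slc25a53 averaged 1.7 ± 0.195, 1.62 ± 0.148 and 1.39 ± 0.243 CPM and was not called. Slc25a43 and Slc25a54 had 7 counts and 1 count in all 9 samples together.

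Related carriers for the same substrate were then compared as ratios within each library, which no scaling can move. The 7 pairs were tested by an exact two-sided permutation test over 3 against 3 samples, which cannot give a p below 0.1. The ratio of Slc25a33 to Slc25a36 changed the most among them. Its log2 value was -0.18, -0.38 and -0.60 in the controls, -0.73, -1.09 and -0.98 after 2 days and -2.27, -2.71 and -3.16 after 7 days. The groups did not overlap, and the ratio was 5.02-fold lower at 7 days than in the controls (log2 difference -2.33, exact permutation p = 0.1, adjusted over 7 pairs 0.14).

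Among the ADP/ATP carriers the balance tilted toward Slc25a5. The log2 ratio of Slc25a4 to Slc25a5 averaged -1.37 ± 0.05 in the controls, -1.14 ± 0.06 after 2 days and -2.04 ± 0.11 after 7 days (SD, n = 3 each). That of Slc25a24 to Slc25a25 averaged 2.17 ± 0.24, 2.64 ± 0.13 and 3.32 ± 0.22. In both pairs no 2 groups overlapped, so the ADP/ATP pair stood higher at 2 days and lower at 7 days than in the controls. The mitoferrin ratio, Slc25a28 to Slc25a37, did likewise in the other direction, with -1.17 ± 0.20 in the controls, -1.67 ± 0.12 after 2 days and -0.69 ± 0.23 after 7 days. The ratio of Slc25a39 to Slc25a40 averaged 4.48 ± 0.46, 4.34 ± 0.12 and 5.58 ± 0.39, and its 7-day samples lay above the others. Each of these 4 pairs had an exact permutation p of 0.1 at 7 days against control, the smallest possible.

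The aspartate-glutamate pair showed the smallest difference among the 7 pairs. The log2 ratio of Slc25a12 to Slc25a13 averaged -0.66 ± 0.04 in the controls, -0.59 ± 0.08 after 2 days and -0.64 ± 0.07 after 7 days (SD, n = 3 each), with a 7-day difference of 0.02 (exact permutation p = 0.6). The ratio of Slc25a16 to Slc25a42 averaged 1.05 ± 0.33, 1.39 ± 0.27 and 0.71 ± 0.43, and its groups overlapped (exact permutation p = 0.3 at 7 days against control). At 3 samples a group, these values do not show that the ratios were equal.

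**Figure D4:**
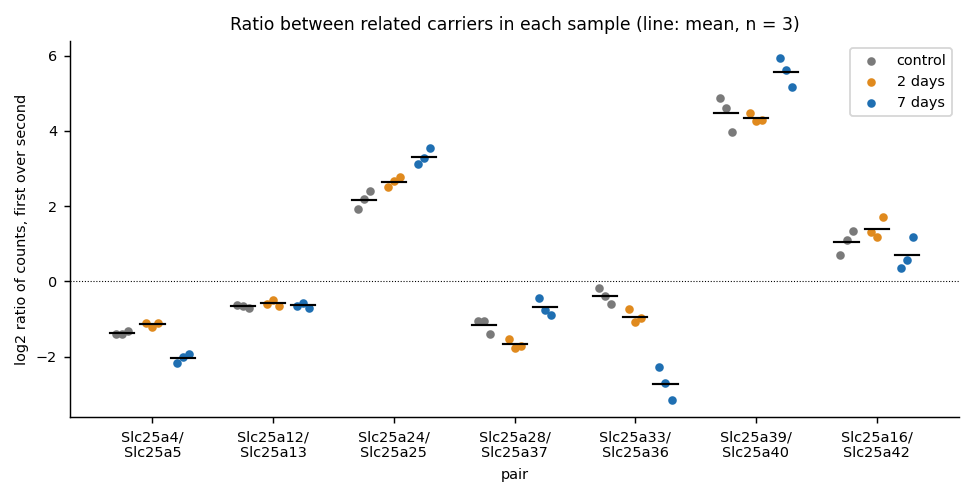
Log2 ratio of the counts of the first to the second carrier of 7 pairs in each sample (points; the line is the mean of 3 samples), with controls in grey, 2 days in orange and 7 days in blue. Slc25a33/Slc25a36 falls to an average of -2.71 at 7 days, against -0.39 in the controls, while Slc25a12/Slc25a13 stays between -0.70 and -0.50 in all 9 samples.

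Divided by exon length, a few carriers made up most of the family's RNA. Slc25a5 averaged 489 ± 9.42 CPM per kb of exon in the controls, 445 ± 26.1 after 2 days and 735 ± 24.8 after 7 days (SD, n = 3 each), which was 39.5%, 37.7% and 43.3% of the summed level of the 47 members. The next 5 by the average over all 9 samples were Slc25a3, Slc25a4, Slc25a1, Slc25a24 and Slc25a39, and the order differed between groups. Slc25a1 came next after Slc25a5 at 7 days, with 190 CPM per kb beside 129 for Slc25a3 and 125 for Slc25a4. In the controls Slc25a48, with 69 CPM per kb, stood above Slc25a24 with 54.4 and Slc25a39 with 44.8. Slc25a3 and Slc25a4 averaged 135 and 133 CPM per kb over all samples, and their ranges overlapped. Together Slc25a5 and those 5 held 76.2% to 76.6% of the family level in the controls, 77% to 77.9% after 2 days and 79.3% to 79.6% after 7 days.

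Within that sum, shares moved between carriers. Slc25a1 held 6.45% in the controls, 7.36% after 2 days and 11.1% after 7 days, while Slc25a3 held 11.7%, 11% and 7.57%, and Slc25a4 10.7%, 12% and 7.4%. The share of Slc25a48 was 5.58%, 2.81% and 0.637%. The family sum was 1211 to 1256 CPM per kb in the controls, 1147 to 1226 after 2 days and 1619 to 1789 after 7 days. Without TMM scaling it was 1332 to 1362, 1269 to 1370 and 1397 to 1414, so that the 7-day samples were still the highest but by far less. Exon length counts all annotated exons, and so understates the level of genes with long exons that are seldom used.

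**Figure D5:**
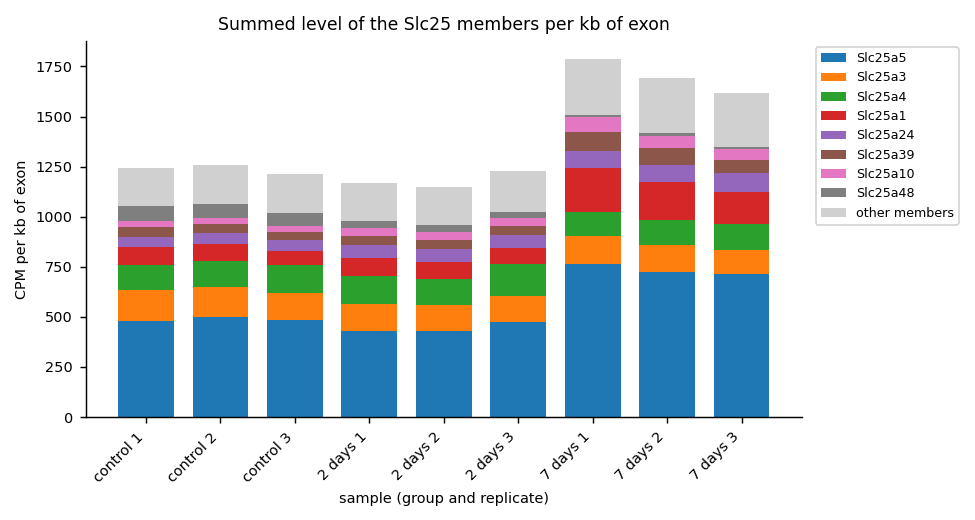
TMM-scaled CPM per kb of exon, stacked for the 8 members with the highest average and the sum of all others, in each of the 9 samples (vertical axis from 0). Slc25a5 is the largest block in every sample, the red block of Slc25a1 is wider at 7 days, and that of Slc25a48 shrinks at 2 days and again at 7 days.

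Carriers reach the inner membrane through import complexes, and most genes of that machinery fell after 7 days. Of 16 tested, 3 were called lower at 2 days and 13 at 7 days, against 10.6% and 41.8% of all tested genes. None was called higher at either time, against 13.1% and 40.5% of all tested genes. Their median log2 fold change at 7 days was -0.91, against -0.03 over all genes. The pore of the outer membrane, Tomm40, averaged 255 ± 16.3 CPM in control organoids, 214 ± 8.11 CPM after 2 days and 101 ± 9.09 CPM after 7 days (SD, n = 3 each). The small chaperone subunit Timm10 averaged 22.2 ± 1.14, 15.9 ± 2.24 and 6.66 ± 0.307 CPM. Their log2 fold changes at 7 days were -1.33 and -1.74 (adjusted p = 8.8e-10 and 1.2e-09 by edgeR). Timm22, the pore that inserts carriers into the inner membrane, had a smaller one of -0.45.

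Citric acid cycle genes were mostly higher after 7 days. Of 17 tested, 11 were called higher and 1 lower at 7 days, against 40.5% and 41.8% of all tested genes. Mdh2, mitochondrial malate dehydrogenase, averaged 435 ± 32.8 CPM in control organoids, 469 ± 9.59 CPM after 2 days and 2004 ± 175 CPM after 7 days (SD, n = 3 each), a log2 fold change of 2.20 at 7 days. The gene called lower was Idh3a, a subunit of isocitrate dehydrogenase, at -1.09. The malate-aspartate shuttle enzymes were split, with Mdh2 and Mdh1 (1.29) higher and the transaminases Got1 (-0.66) and Got2 (-0.50) lower on the log2 scale.

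Genes listed for lipid synthesis from citrate were split. Of 6 tested, 2 were called higher and 3 lower at 7 days, against 40.5% and 41.8% of all tested genes. Those called higher were Acss2, which makes acetyl-CoA from acetate, and malic enzyme Me1, with log2 fold changes of 2.29 and 1.59. The 3 called lower were Fasn and Acaca, which build fatty acids, and Acly, with -0.55, -0.77 and -0.23. Other mitochondrial transport genes went both ways, with 10 of 16 called higher and 4 lower at 7 days. Of all tested genes, 40.5% and 41.8% were called higher and lower. The median log2 fold change of this list was 0.41, against -0.03 over all genes. The calcium uniporter Mcu averaged 146 ± 10.4 CPM in control organoids, 224 ± 13.1 CPM after 2 days and 342 ± 6.93 CPM after 7 days (SD, n = 3 each), and its regulator Micu2 had a log2 fold change of 1.26 at 7 days.

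Markers of fibroblasts and endothelium were near 0. The sum of 7 fibroblast markers was at most 1.12 CPM and that of 5 endothelial markers at most 2.27 CPM in any sample. Of the 2 fibroblast markers tested, Pdgfrb was called higher (log2 fold change 5.04) and Col1a2 lower (-2.20) at 7 days. Pdgfrb had 1 count in the controls, 7 after 2 days and 39 after 7 days. The endothelial marker Tek was called higher at 7 days than at 2 days (0.88), but not against the controls. The sum of 6 leukocyte markers ranged from 1.17 to 1.43 CPM in control organoids, from 1.42 to 1.81 CPM after 2 days and from 3.81 to 5.8 CPM after 7 days, with Cd68 the largest part; Cd68 and Csf1r were called higher at 7 days, with log2 fold changes of 1.59 and 5.15. The part of such cells in the carrier results was not tested. Lum and Emcn had no count in any sample.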

How the data were processed

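The authors deposited raw read counts per gene for 9 poly(A) RNA libraries made with a kit that does not mark strand. Per the submitters' processing notes, STAR 2.7.0e, featureCounts and DESeq2 were used with mm10/GRCm38. For the gene annotation, the strand setting and the treatment of reads with several matches, the sources used here give nothing. Identifiers were matched to GENCODE M21.

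Counts were filtered with filterByExpr, scaled by TMM and fitted with edgeR 4.0.16 (quasi-likelihood, R 4.3.3) over all 3 groups with no covariate. P-values were adjusted over 12535 genes, and a call is an adjusted p under 0.05. The standard error of a log2 fold change is its size divided by the square root of F. The design of the fit was tested on simulated data. Ratios add 0.5 to each count. CPM per kb divides by the union of annotated exons. Intervals and depth (24143589 to 32277040 counts) cover counting error only.

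The members, roles and gene lists were chosen with earlier results of these data known. Members given in every sample were up to 8 per direction and time with the largest change among those called, with at least 5 CPM in the higher group and no overlap, the 6 highest per kb and the members of 7 pairs, the last partly as means. Other members are given as means, counts or ranges, and 1 member that is in the counts is not reported here by name. In the gene lists, examples were chosen after their values were seen. Alternatives were limma 3.58.1 (voom), DESeq2 1.42.0 (test and size factors), library size alone, no filter, fits of 2 groups, a replicate block and leaving out each sample. Replicates of a group differed by more than sampling noise (chi-square per degree of freedom 4.24 to 38.3). Promoter windows came from RefSeq on GRCm38.p6, where 36 of 47 members matched by symbol; motif matches were counted on both strands.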

Additional observations from a re-analysis of the deposited data

Results flagged for a closer look

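For 33 members, the change against the controls differed between 7 days and 2 days in a direct test of that difference (edgeR, adjusted p under 0.05), which is the comparison of 7-day with 2-day samples. The differences below are on the log2 scale, 7 days minus 2 days, and each has 3 samples per group that do not overlap. In 19 of them the 7-day samples were higher: 3.78 for Slc25a45, 2.72 for Slc25a20, 1.34 for Slc25a23, 1.13 for Slc25a1, 0.98 for Slc25a36, 0.84 for Slc25a44, 0.80 for Slc25a39, 0.79 for Slc25a15, 0.72 for Slc25a5, 0.71 for Slc25a10, 0.70 for Slc25a11, 0.70 for Slc25a42, 0.65 for Slc25a35, 0.65 for Slc25a13, 0.60 for Slc25a12, 0.51 for Slc25a28, 0.49 for Slc25a46, 0.46 for Slc25a24 and 0.30 for Slc25a22. Slc25a34 had a fitted difference of 7.81, which depends on the prior count. Its 257 counts at 7 days against 1 at 2 days give a TMM-scaled ratio of 314, with a 95% exact interval of 55.9 to 12454. In 13 the 7-day samples were lower, among them -1.62 for Slc25a30, -1.61 for Slc25a48, -1.31 for Slc25a27, -0.82 for Slc25a33, -0.72 for Slc25a47, -0.63 for Slc25a14, -0.61 for Slc25a29, -0.57 for Slc25a32, -0.46 for Slc25a37, -0.44 for Slc25a40, -0.41 for Slc25a26 and -0.38 for Slc25a38. Slc25a37 stands among these although its 7-day level was not called against the controls (log2 fold change -0.09); its 2-day level was called higher (0.37).

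With library size alone, Slc25a22, Slc25a24, Slc25a28, Slc25a35 and Slc25a46 no longer passed the test of this difference. The share of all tested genes with such a difference was 79.1%, close to the 82.5% of the members.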

How the results depend on the processing

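Calls that involve the 7-day samples held better than those at 2 days. In all 16 alternatives, 26 of 32 were kept against the controls and 27 of 33 between 7 and 2 days, but only 2 of 9 at 2 days. With library size alone, the members called lower numbered 19 at 7 days and 2 at 2 days, and the log2 fold change at 7 days became -0.32 for Slc25a17, -0.06 for Slc25a22, -0.02 for Slc25a28 and -0.39 for Slc25a51; for Slc25a22 it became -0.13 between 7 and 2 days. That scaling moves the median of all genes at 7 days by -0.4, and 34.8% of all called genes were then higher, against 49.2% with TMM; between 7 and 2 days it was 31.8%, against 49.5%.

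Leaving out 1 sample at a time, the members called higher at 2 days numbered 1 to 6 and those called lower 2 to 4. At 7 days they numbered 20 to 21 and 12 to 13, and between 7 and 2 days 19 to 20 and 13 to 14. The count of 5 higher at 2 days fell to 1 without control 1, to 2 without control 2, 2-day sample 1 or 2-day sample 3, and to 3 without 2-day sample 2 or 7-day sample 2. The count of 4 lower fell to 2 without control 2, 2-day sample 1, 2-day sample 3 or 7-day sample 2. Calls over all tested genes at 2 days moved too. They ranged from 1184 to 1781 higher and from 809 to 1517 lower, against 1636 and 1333 with all samples. Over the same omissions, the 7-day differences in log2 ratio ranged from -0.01 to 0.05 for Slc25a12/Slc25a13 (-0.01 without 7-day sample 2), from -0.58 to -0.17 for Slc25a16/Slc25a42, from 1.02 to 1.26 for Slc25a24/Slc25a25, from 0.35 to 0.57 for Slc25a28/Slc25a37, from -2.55 to -2.11 for Slc25a33/Slc25a36, from 0.84 to 1.30 for Slc25a39/Slc25a40 and from -0.72 to -0.61 for Slc25a4/Slc25a5. The cause was not tested.

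Samples with the same replicate number deviated together in some pairs and not in others (correlations -0.13 to 0.48). Of 18 combinations of a sample with another group, each with 3 candidates, 12 correlated best with their own number. The main fit and the permutation tests do not use this number. With the replicate number as a block, 6 members were called higher and 6 lower at 2 days, 21 and 13 at 7 days, and 20 and 15 between 7 and 2 days. These were 30%, 85% and 87.5% of the members, against 32.2%, 85.1% and 82.2% of all tested genes.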
